A study of Mus musculus with 7 samples.

Results

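The 10 guanylate-binding protein genes Gbp2, Gbp2b, Gbp3, Gbp4, Gbp5, Gbp6, Gbp7, Gbp8, Gbp9 and Gbp10 were followed in mouse tumours, 10 of 32212 genes measured. They were taken by gene symbol, and all 10 were found and passed the filter on low values, with at least 0.5 FPKM in every library; FPKM is a read count divided by the length of the gene and by the library's sum of counts. The tumours grew under the skin of wild-type C57BL/6J mice injected at 6 weeks of age with cells of the mouse lung tumour line LLC (Lewis lung carcinoma). Bulk tumour RNA was sequenced from 4 samples labelled as untreated (control) and from 3 labelled with Ze-qi decoction (ZQD), a herbal medicine whose high dose was 42.67 g/kg. Treatment groups were formed 3 days after injection, and the protocol puts collection at day 22 after the tumour was set up, the design text at day 21 of treatment. The labels do not tie samples to individual mice, and they name a pair of sequencing platforms (Illumina Novaseq and MGISEQ) without saying which served which library, so a platform difference between groups was not tested. Every p-value below is thus one about sample-to-sample spread, part or all of which may be technical. The family was selected on its FPKM in ZQD and control tumours, and Gbp2b was singled out because it differed from its relatives there, so the differences between these groups are given as a description, with no p-value for any member.

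Guanylate-binding proteins are large GTPases of the dynamin superfamily that interferon gamma, and to a lesser degree type I interferon, switch on. They assemble on vacuoles that hold pathogens and on bacteria in the cytosol, and they help to activate inflammasomes. In tumours their transcripts are known as a readout of interferon reaching tumour cells, macrophages and vessel cells. Mouse Gbp2b was formerly named Gbp1.

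In the GENCODE M21 annotation (build GRCm38), the members lie in a cluster on each of 2 chromosomes. On chromosome 3, Gbp5 (start 142493978, end 142522344), Gbp7 (start 142530342, end 142550149), Gbp3 (start 142560026, end 142573209), Gbp2b (start 142594847, end 142619179) and Gbp2 (start 142620602, end 142638008) follow each other on the plus strand. On chromosome 5, Gbp8 (start 105014150, end 105139540), Gbp9 (start 105077630, end 105139539), Gbp4 (start 105115767, end 105139586), Gbp10 (start 105215699, end 105239533) and Gbp6 (start 105270702, end 105293698) lie on the minus strand. Gbp2b and Gbp2 are thus next to each other, and they are also the closest pair by sequence on chromosome 3: their coding sequences, of 1770 bases each, were identical at 82.5% of aligned bases. With the other members, Gbp2b shared 61.6% (Gbp7) to 68.1% (Gbp5).

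Reads from near-identical stretches cannot be assigned to one gene, so the shared sequence was measured. The longest stretch that the coding sequences of Gbp2b and Gbp2 share without a mismatch has 98 bases and begins at coding base 340 of both, and it is shown because a read that falls inside it could come from either gene.
Gbp2b and Gbp2: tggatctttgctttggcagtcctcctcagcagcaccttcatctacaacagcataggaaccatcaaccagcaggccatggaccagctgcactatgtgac
Of all stretches of 100 bases in Gbp2b transcripts, 0% occurred in any other gene, and of those of 50 bases 1.84% occurred in Gbp2. Gbp2 and Gbp5 also had 0% of their 100-base stretches in another family gene, and Gbp3, Gbp7, Gbp4, Gbp9 and Gbp8 had 0.694%, 0.428%, 1.64%, 1.65% and 4.39%. At 50 bases the shares were larger, with 18.1% for Gbp8, 8.05% for Gbp9 and 7.53% for Gbp4. The coding sequences of Gbp4 and Gbp8 were 92.9% identical. Gbp6 and Gbp10 stood apart from these, with coding sequences 98.4% identical, a shared stretch of 421 bases, and 37.3% and 60.9% of 100-base stretches in another family gene. In addition, 29.0% of the exonic bases of Gbp6 and 46.3% of those of Gbp10 lie in exons of the overlapping gene model Gm43302, which was listed at 0 FPKM in 6 of 7 libraries. The values of Gbp6 and Gbp10 are therefore uncertain. Those of Gbp8, and of Gbp7 with 11.3% of its exonic bases inside exons of the gene model Gm43802, are less so.

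RefSeq promoter windows (build GRCm38.p6, from 250 bases before to 50 after a start site) were on hand for 5 of the 10 members, all on chromosome 3. They were searched on both strands for the core of the interferon-stimulated response element (ISRE), which is GAAA, any 2 bases and GAAA again, and for the gamma-activated site (GAS), written TTCNNNGAA. Windows of 3 members are shown, Gbp2b with its neighbour Gbp2 and, for contrast, Gbp7, with both motifs in capitals; Gbp2b is at chr3:142594597-142594896, Gbp2 at chr3:142620413-142620712 and Gbp7 at chr3:142530086-142530385, all on the plus strand.
Gbp2b: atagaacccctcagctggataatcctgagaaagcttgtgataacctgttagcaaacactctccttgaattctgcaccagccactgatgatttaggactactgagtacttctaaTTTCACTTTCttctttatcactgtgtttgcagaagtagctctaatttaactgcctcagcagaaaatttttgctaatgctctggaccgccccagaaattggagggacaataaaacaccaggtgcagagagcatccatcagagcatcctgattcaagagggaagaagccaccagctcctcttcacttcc
Gbp2: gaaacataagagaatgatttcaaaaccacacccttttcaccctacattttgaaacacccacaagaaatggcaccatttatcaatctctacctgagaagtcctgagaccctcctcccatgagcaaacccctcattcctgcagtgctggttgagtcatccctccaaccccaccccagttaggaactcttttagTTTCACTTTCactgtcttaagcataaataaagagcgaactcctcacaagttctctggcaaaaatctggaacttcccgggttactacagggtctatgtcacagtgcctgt
Gbp7: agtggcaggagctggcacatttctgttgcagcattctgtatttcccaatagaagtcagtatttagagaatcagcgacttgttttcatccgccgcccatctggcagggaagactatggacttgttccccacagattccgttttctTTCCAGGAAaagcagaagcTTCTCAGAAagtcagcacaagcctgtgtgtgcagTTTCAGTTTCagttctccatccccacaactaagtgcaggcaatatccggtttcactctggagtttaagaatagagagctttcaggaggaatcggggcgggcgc
The ISRE core was in a window of all 5 members, against 3.99% of the 27025 genes with a window. Gbp2b and Gbp2 carry the same letters, TTTCACTTTC, which begin 137 bases before the start in Gbp2b and 59 before it in Gbp2. In Gbp3 a pair of overlapping matches begins 45 and 39 bases before the first of its 2 listed starts, in Gbp7 the match begins at 53 bases and in Gbp5 at 165 bases before the start. The GAS letters were in the windows of Gbp5 (2 matches) and Gbp7 (2 matches), against 9.55% of genes, and did not occur in these windows of Gbp2b, Gbp2 or Gbp3. A match describes letters and shows no binding.

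**Figure D1:**
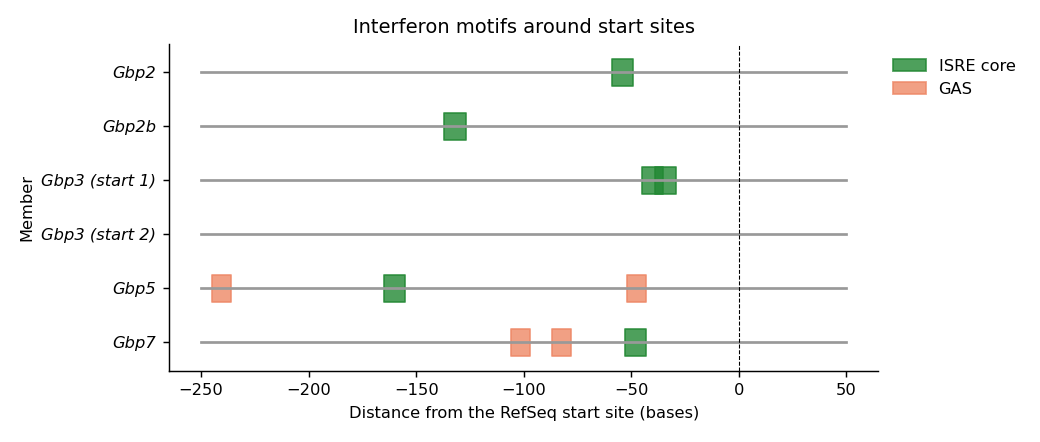
Positions of the ISRE core and GAS letters in the RefSeq windows of 5 members; the x axis is the distance from the start site in bases, each line is a window of 300 bases and boxes are matches. The ISRE core begins 137 bases before the start in Gbp2b and 59 bases before it in Gbp2.

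Counted reads per library numbered 32065288 to 49914394 for controls and 34765330 to 38673663 for ZQD, and a member had 111 to 29100 reads in a library. Mitochondrially encoded genes took 5.18% to 7.96% of reads in controls and 8.78% to 11.1% in ZQD. The label calls the samples tumour cells, but the tissue was mixed: 10 macrophage and monocyte markers summed to 721 to 1040 FPKM. Epithelial markers (Krt8, Krt18, Epcam, Cdh1) summed to 0.956 to 1.93 FPKM. Neither sum measures a share of cells, and the share of tumour cells is not known from them. Summed NK cell markers were at 24.8 to 36.0 FPKM in controls and 42.4 to 45.1 in ZQD, the marker set of those checked whose groups did not overlap. Most of that sum was Eomes, at 16.0 to 29.8 FPKM in controls and 29.9 to 32.9 in ZQD. Groups were separate for Eomes, Klrd1 and Klrk1 and overlapped for Ncr1, Klrb1c and Gzma. In bulk tissue, fewer cells of a type and less RNA per cell cannot be told apart.

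Gbp2 was the most abundant member and supplied about as much as all others together, 46.5% to 52.2% of the family's summed FPKM in controls and 50.5% to 54.6% in ZQD. In mean control level it was followed by Gbp3, Gbp9, Gbp7, Gbp4, Gbp5, Gbp8, Gbp6, Gbp10 and Gbp2b. Within controls, the ranges of the neighbours Gbp9 and Gbp7, Gbp7 and Gbp4, Gbp8 and Gbp6, and Gbp10 and Gbp2b overlapped, and those of the other neighbours did not. In ZQD tumours the order was the same except that Gbp2b stood above Gbp10, with ranges that did not overlap. The family's summed level was 434 ± 96.9 FPKM (SD, n = 4) without treatment and 454.6 ± 40.0 (SD, n = 3) after ZQD, and the ranges of 341.9 to 562.1 and 408.5 to 479.4 overlapped.

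**Figure D2:**
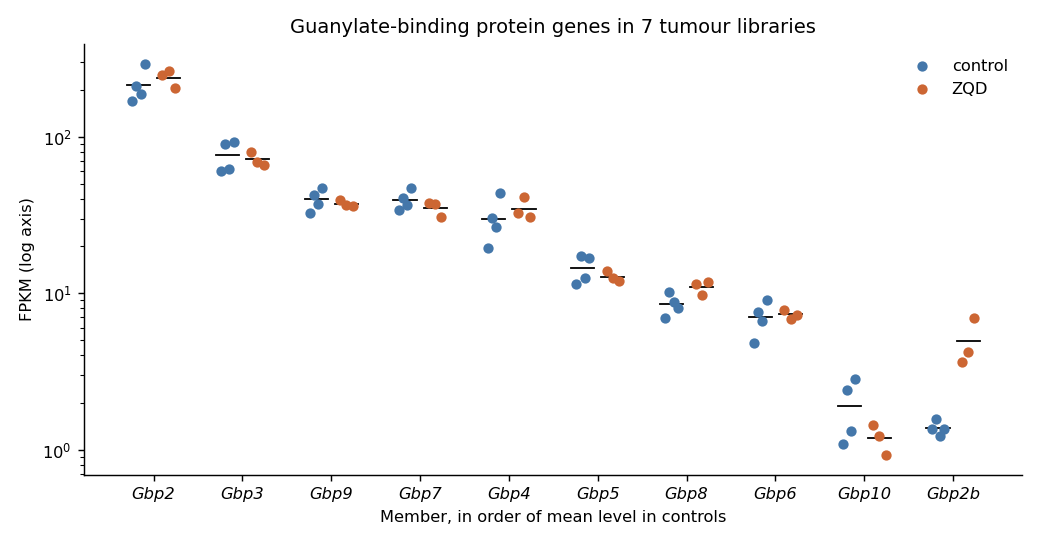
FPKM of each member on a log axis, 1 point per library (4 control, 3 ZQD), with the group mean as a line. The ZQD points of Gbp2b (3.63 to 6.95) all lie above its control points (1.23 to 1.56), and on this scale the groups of the other 9 members overlap; with TMM scaling Gbp8 and on the TPM scale Gbp7 separate too.

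Gbp2b was higher in ZQD tumours. Controls 1 to 4 had 1.35, 1.56, 1.23 and 1.35 FPKM, and ZQD 1 to 3 had 3.63, 4.195 and 6.95 FPKM. The lowest ZQD tumour thus lay above the highest control, and the ZQD tumours also differed more among themselves, with ZQD 3 highest. The means were 1.37 ± 0.138 (SD, n = 4) and 4.93 ± 1.78 (SD, n = 3), a ratio of 3.59 and a log2 fold change of 1.49 (SE 0.196), where each fold change is a difference of log2(FPKM + 0.5), ZQD minus control, and is too small for genes of low level. These values rest on 190, 171, 111 and 150 reads in controls and 378, 458 and 682 in ZQD. Leaving out ZQD 3 gave 1.24 and leaving out ZQD 1 gave 1.66. On the deposited FPKM scale it was 1 of 10 members whose groups did not overlap (2 with TMM scaling, which adds Gbp8, and 2 on the TPM scale, which adds Gbp7), where 15.2% of the 14838 genes tested had groups that did not overlap (5.35% with ZQD higher and 9.84% with ZQD lower); since Gbp2b was chosen for this contrast, nothing is read from that share.

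A ratio within a library does not depend on how libraries are scaled. Gbp2b was at 0.794%, 0.740%, 0.656% and 0.459% of the FPKM of Gbp2 in controls 1 to 4. In ZQD 1 to 3 it was at 1.47%, 1.60% and 3.37%. The difference between groups was therefore present against its neighbour and closest relative on chromosome 3, and the library with the most Gbp2 (control 4) had the lowest ratio. Against the mean of its 9 relatives, the log2 level of Gbp2b lay at -3.98 ± 0.300 (SD, n = 4) without treatment and at -2.17 ± 0.602 (SD, n = 3) with ZQD. Its log2 fold change exceeded the median of theirs (-0.07) by 1.56. Even so, Gbp2b made up no more than 1.70% of the family's summed FPKM in any library.

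**Figure D3:**
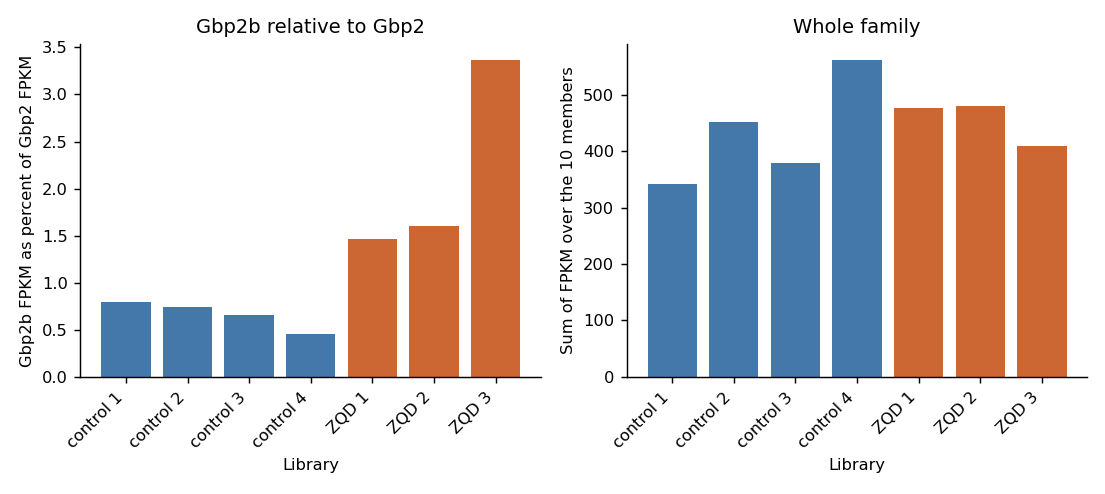
Left, Gbp2b FPKM as a percent of Gbp2 FPKM by library; right, the sum of FPKM over the 10 members by library, with controls in blue and ZQD in orange. The ratio is 0.459% to 0.794% in controls and 1.47% to 3.37% in ZQD, while the sums overlap.

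The 4 other members on chromosome 3 had overlapping groups in FPKM. Gbp2, which carries a lipid anchor and is recruited to parasite vacuoles, had 169.8, 210.5, 186.8 and 293.6 FPKM in controls 1 to 4, and ZQD 1 to 3 had 247.8, 261.6 and 206.3. All 3 ZQD values lay inside the range of controls, which control 4 set at the top. Its log2 fold change was 0.17 (SE 0.185). For Gbp3 the controls had 60.3, 89.5, 61.9 and 93.2 FPKM and the ZQD tumours 80.0, 68.6 and 66.2 (log2 fold change -0.07, SE 0.174). Here the controls split into a low pair (1 and 3) and a high pair (2 and 4), with ZQD between them. Gbp5, known for promoting NLRP3 inflammasome assembly, ranged from 11.5 to 17.4 FPKM in controls and from 11.9 to 13.8 in ZQD (-0.16, SE 0.153). Gbp7, linked to antibacterial defence, ranged from 34.2 to 46.8 FPKM in controls and from 30.6 to 37.6 in ZQD (-0.16, SE 0.126), with ZQD 3 below every control.

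On chromosome 5, no member had separate groups in FPKM, and Gbp8 had them with TMM scaling. Gbp8 came nearest, with control values of 6.96, 10.1, 8.82 and 8.07 FPKM and ZQD values of 11.4, 9.73 and 11.7. ZQD 1 and ZQD 3 lay above every control, and ZQD 2 lay below control 2. Its log2 fold change was 0.35 (SE 0.132), 0.27 to 0.44 with 1 library left out. Gbp4 had control values of 19.6, 30.3, 26.7 and 43.4 FPKM and ZQD values of 32.6, 41.04 and 30.5 (0.25, SE 0.237), and control 1 and control 4 spanned all other libraries. Without control 1 the Gbp4 value was 0.07 and without control 4 it was 0.45. Gbp9 ranged from 32.4 to 47.0 FPKM in controls and from 36.0 to 39.6 in ZQD (-0.07, SE 0.126).

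Of the pair with shared sequence, Gbp10 had a fold change below 0 and Gbp6 one near 0, both with overlapping groups. Gbp10 had control values of 1.09, 2.42, 1.31 and 2.83 FPKM and ZQD values of 1.43, 1.22 and 0.921, with the lowest fold change of the family (-0.46, SE 0.271), and without control 4 it was -0.28. Controls 2 and 4 stood above all other libraries. Gbp6 ranged from 4.78 to 9.01 FPKM in controls and from 6.85 to 7.86 in ZQD (0.09, SE 0.182), and its sign turned without control 1 (-0.06) and on the TPM scale (-0.0015). Over the family, 5 members had a fold change above 0 and 5 below, where 41.8% of all genes tested were above 0 and 58.2% below, and on the TPM scale the split was 4 and 6. The median of the 10 members was 0.01 and that of all genes tested -0.04; on the TPM scale they were -0.09 and -0.15.

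**Figure D4:**
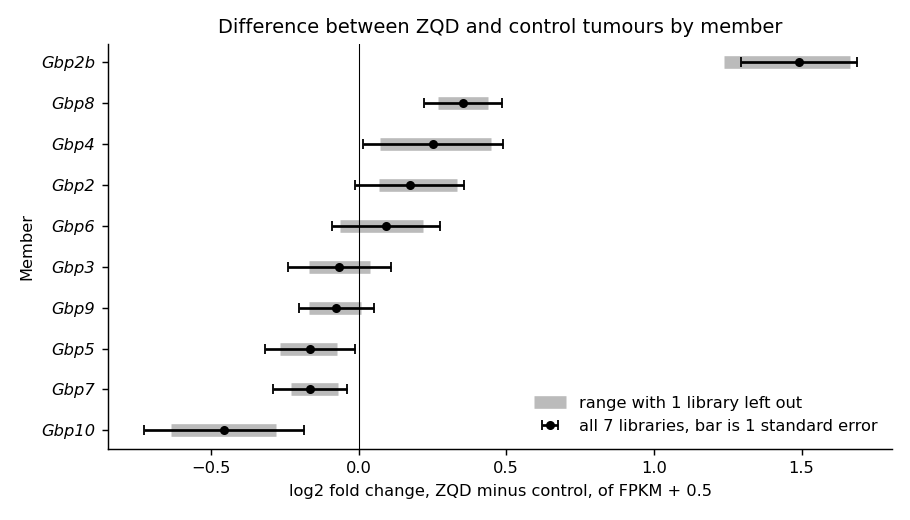
Log2 fold change (ZQD minus control) of each member with its standard error as a black bar, and in grey its range when 1 of the 7 libraries is left out. Gbp2b lies at 1.49, with a range of 1.24 to 1.66, and the other 9 members lie between -0.46 and 0.35.

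The members varied together among untreated tumours. The order of the controls does not use the treatment contrast, but the family was selected on FPKM that include these controls. The members are also not independent of each other, since Gbp6 and Gbp10 share sequence, so the counts below are a description. Control 1 had the lowest level of the 4 controls for 9 of 10 members, against 21.5% of all genes tested, and control 4 the highest for 7 of 10, against 24.3%. Both held for 7 members (70.0%), against 7.39% of genes. The exceptions to control 4 were Gbp2b, Gbp5 and Gbp8, which were highest in control 2, and Gbp2b alone did not have its lowest control in control 1. Of the 10 immunity-related GTPases, the other family of interferon-induced GTPases that act on vacuoles, 9 had control 1 lowest and control 4 highest. Of 14 type I interferon antiviral genes, 8 had control 1 lowest and 8 had control 4 highest (57.1% each), and 2 had both (14.3%). Control 1 and control 4 also differed in tissue content. The fibroblast markers Pdgfra, Pdgfrb, Dcn and Lum were each highest in control 1 and lowest in control 4, with Dcn at 23.7 and 1.72 FPKM. Among controls, the skeletal muscle markers Acta1, Ckm, Myh4 and Tnnt3 were each highest in control 1. Acta1 was at 9.94 FPKM there and at 0.218 to 0.467 in the other controls. The T cell markers checked were each lowest in control 4 among controls, with Cd8a at 3.26 FPKM there and 5.17 to 6.10 in the others. The part of tissue content in the order of the controls was not tested. Among ZQD tumours, ZQD 3 was lowest for 7 members and highest for Gbp2b and Gbp8.

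Genes with the most similar pattern were sought by the root mean square difference of log2(FPKM + 0.5) over the 7 libraries, each gene centred on its own mean, among 11133 other genes at 1 FPKM or more. For Gbp2 the nearest were Ssbp2 (0.0759), Dut (0.114), the immunity-related GTPase gene Iigp1 (0.116), Wee1 (0.119) and Mir6905 (0.123), where the median gene was at 0.318. Gbp4 ranked 8 and Gbp6 ranked 40 in likeness to Gbp2. Gbp2b ranked 10924 of 11133, a rank that includes the group difference for which Gbp2b was chosen. For Gbp2b the nearest were Cox6c2 (0.295), the ribosomal protein gene Rpl21 (0.356), BC085271 (0.369), the pseudogene Rpl21-ps8 (0.401) and Luc7l3, a splicing factor (0.426), with the median gene at 0.815. In those 5 genes, too, all ZQD libraries lay above all controls, and the group difference is part of the measure. Cox6c2 rested on 8 to 14 reads in controls and 23 to 32 in ZQD, and Mir6905 on 4 to 9 reads per library. The family member nearest to Gbp2b was Gbp8, at rank 250, and Gbp2 was at rank 3092 (0.764).

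Interferon signalling, other interferon-induced genes, partners of the proteins and dynamin-like relatives were examined in 7 lists, with limma over all 14838 genes. No gene passed at a Benjamini-Hochberg adjusted p under 0.05 in limma (0.0% of genes, smallest adjusted p = 0.078), and edgeR also called 0, whereas DESeq2 called 504. At an unadjusted p under 0.05 there were 2306 genes (15.5%), 5.21% with ZQD higher and 10.3% lower, and 28 of the 84 list genes tested. The split of those 2306 genes, 773 higher and 1533 lower, became 1093 and 1093 with TMM scaling.

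Of the 15 genes of interferon gamma and its signalling, 2 were higher and 1 lower at an unadjusted p under 0.05, with a median log2 fold change of -0.02, and without ZQD 3 the count of 3 was 1. Ifng, the ligand, had control values of 0.743, 1.63, 1.35 and 1.22 FPKM and ZQD values of 1.99, 1.22 and 0.977 (log2 fold change 0.12), so its groups overlapped. Ifngr1, its receptor chain, was at 17.4 to 26.9 FPKM in controls and 29.0 to 35.8 in ZQD (log2 fold change 0.42, limma adjusted p = 0.280). Irf1, an interferon-induced transcription factor, ranged from 40.4 to 49.1 and from 35.9 to 42.8 FPKM (-0.21, limma adjusted p = 0.346). The kinases Jak1 and Jak2 had fold changes of -0.17 and -0.08. The related factor Irf2 had 0.20, with all ZQD libraries above controls. Socs1, the feedback inhibitor of this pathway, was at 4.67 to 6.37 FPKM in controls and 3.33 to 4.11 in ZQD (-0.53, limma adjusted p = 0.155), and Socs3, another inhibitor, had -0.12. The ligand and the bulk of the Gbp family had overlapping groups. Groups were separate for Ifngr1 and Irf2 (2 of 15 genes, ZQD higher) and for Jak1 and Socs1 (2 of 15, ZQD lower). Over all genes tested these shares were 5.35% and 9.84%, and nothing is read from the counts. On the TPM scale the groups of Ifngr1 and Irf2 overlapped, and with median-of-ratios scaling those of Jak1 did.

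The immunity-related GTPases had 2 members above 0 and 8 below (4 and 6 without control 4), a median of -0.19 (-0.03 without control 4 and -0.31 without control 1), and 0 of 10 at an unadjusted p under 0.05, which was 1 on the TPM scale and 1 without control 1, control 4 or ZQD 1. Igtp, Iigp1, Irgm2 and Irgm1 had fold changes of -0.04, 0.19, -0.29 and -0.22, and in none did the groups separate. Among interferon gamma induced chemokine and antigen processing genes, 2 of 14 were higher and 2 lower at that level (median -0.12). Cxcl9, a T cell attractant known as a target of interferon gamma, was at 77.9 to 125.6 FPKM in controls and 145.4 to 183.9 in ZQD (0.84, limma adjusted p = 0.154). Cxcl10, which type I interferon also induces, was at 43.4 to 79.4 and 33.4 to 38.4 FPKM (-0.74, limma adjusted p = 0.179), so these related chemokines lay on opposite sides. Serpina3g, a protease inhibitor, had 0.69 with separate groups, and Psmb10 and Tapbp, which serve antigen processing, had -0.23 and -0.34.

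The lists of the type I interferon branch were examined in the same fit. All 14 antiviral effectors had fold changes below 0, from -1.31 to -0.49, with a median of -0.93, and 14 had an unadjusted p under 0.05; with any 1 library left out 11 to 14 did, and all 14 lay below 0 under every alternative. Among them were Ifit3 (-1.31), Rsad2 (-1.30), Cmpk2 (-1.20), Usp18 (-1.08), Isg15 (-0.999), Ifi44 (-0.95) and Oasl2 (-0.49). Of 7 tested genes of type I interferon signalling, 4 were lower at that level: Irf7 (-0.92), Irf9 (-0.47), Stat2 (-0.45) and Tyk2 (-0.24), with the receptor chain Ifnar1 at 0.11. That count of 4 was 2 without ZQD 2 and 2 without ZQD 3. None passed the adjusted threshold in limma. No test of the difference between these lists and the family was made, because members were chosen with results known.

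Among 17 inflammasome and ubiquitin-like conjugation genes, through which guanylate-binding proteins act, 3 were higher and 0 lower at an unadjusted p under 0.05, with a median of 0.05 (-0.05 on the TPM scale), where 15.5% of all genes were past that level in either direction. The count of 3 was 1 without ZQD 3, 1 on the TPM scale, 5 in edgeR and 6 in DESeq2. The DNA sensor Aim2 (0.42), the adaptor Pycard (0.48) and the sensor Nlrp3 (0.50) had all ZQD libraries above controls. These are 3 of 17 genes, against 5.35% of all genes tested. Casp1 had 0.22, Gsdmd -0.19, Gabarap -0.07 and Gabarapl1 -0.05. The dynamin-like relatives had 0 of 7 at that level (2 on the TPM scale, 1 without control 2 or ZQD 3), with Dnm2 at -0.17, Atl3 at -0.10, Mfn2 at -0.01 and Opa1 at 0.01; all 7 lay below 0 on the TPM scale. The mitochondrial share and summed NK cell markers lay higher in all ZQD libraries than in all controls, as Gbp2b did. That NK sum was mostly Eomes and is no measure of NK cell number. The part of the mitochondrial share and of the NK sum in the level of Gbp2b was not tested. Within ZQD, the mitochondrial share was highest in ZQD 1 (11.1%) and lowest in ZQD 3 (8.78%). Summed NK cell markers were highest in ZQD 2 and Gbp2b in ZQD 3. The order of 3 libraries cannot tell what part either had in the level of Gbp2b. Of 10 macrophage and monocyte markers, 9 had a fold change above 0, against 41.8% of all genes tested. This was not particular to them. Tested markers above 0 were 8 of 8 for T cells, 5 of 5 for neutrophils, 4 of 4 for NK cells and 4 of 4 for endothelial cells. For dendritic cells they were 2 of 5, for fibroblasts 2 of 4, and for platelet and erythroid cells 3 of 5. B cell, skeletal muscle and epithelial sets had 1 of 1, 2 of 2 and 0 of 1. Separate groups with ZQD higher were seen for 3 (Mrc1, Folr2 and C1qb), against 5.35% of genes. In ZQD 1 to 3, Mrc1 was at 13.7, 47.6 and 13.8 FPKM and Folr2 at 4.00, 11.7 and 5.30. The summed level of the 10 markers overlapped, at 721 to 921 FPKM for controls and 844 to 1040 for ZQD. T cell markers were at 13.9 to 24.0 FPKM in summed level in controls and 20.4 to 29.1 in ZQD, with ZQD 3 at the top.

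**Figure D5:**
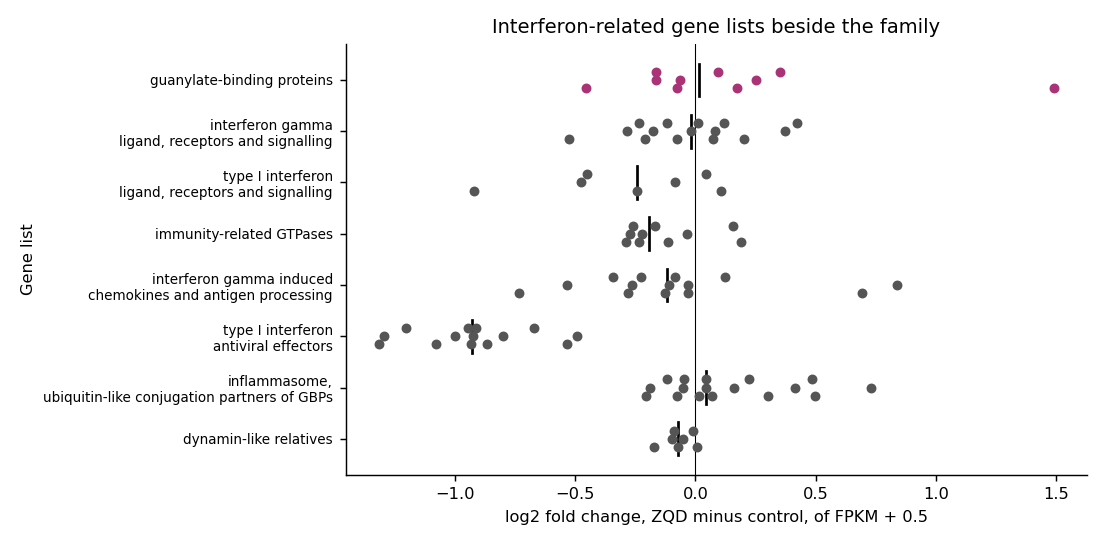
Log2 fold change (ZQD minus control) of each tested gene, by list, with the median as a vertical bar and the 10 members in purple. All 14 antiviral effectors lie below 0, while the family has a median of 0.01 and Gbp2b lies apart at 1.49.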

How the data were processed

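The authors deposited FPKM for 7 libraries and, for control 1 and control 2 alone, raw gene counts as well. The submitters' processing notes name HISAT2, featureCounts, Subread and DESeq2. Which version, build or annotation they used, and how reads that match several genes were treated, was not given in the sources used here. Counts and FPKM of those 2 libraries gave the length of 27421 of 32212 genes, identical to the GENCODE M21 exon length for 98.2% of 27021 genes compared and for all 10 members. With these lengths, reads were rebuilt for the other libraries (within 0.05 of a whole number for 100% of values). Symbols matched 98.0% of identifiers.

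limma 3.58.1 with trend (R 4.3.3) was fitted to log2(FPKM + 0.5) for 14838 genes with at least 0.5 FPKM in 3 or more libraries; its tests were two-sided and Benjamini-Hochberg adjusted. edgeR 4.0.16 and DESeq2 1.42.0 were run on rebuilt reads of 14832 genes. limma was also tested on simulated data for ZQD against control (14832 genes). The simulation gave all genes the same fixed spread and put changes only into genes of higher read number. There limma found 86% of genes given a log2 change of 1 and 100% of those given 2. The simulated spread was not matched to these tumours, so these shares do not tell how many real changes limma missed. Coding sequences were aligned with Biopython 1.88.

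Other alternatives were pseudocount, filter, scaling, leaving out each library and a replicate block. Scaling without mitochondrially encoded genes was chosen after seeing the data. The members and lists were chosen with earlier results of these data known. Named were all members, from each list the 4 most abundant genes and up to 3 others with groups that did not overlap, Ifng and Irf1, and the 5 genes of pattern nearest to Gbp2b and Gbp2; 1 gene named by this rule is not reported here.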

Additional observations from a re-analysis of the deposited data

Results flagged for a closer look

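Among 60 genes checked in the 4 controls, 3 had a control far from the other 3 relative to the range, and chance gives about 1 in 20. Ifngr1 was at 17.36 FPKM in control 4, below the others. Cxcl9 was at 125.6 FPKM in control 3, above the others. Tapbp was at 62.34 FPKM in control 3, below the others. No guanylate-binding protein gene was among the 3.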

How the results depend on the processing

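Signs of members near 0 turned under some of the 18 alternatives: Gbp3 under 3, Gbp6 under 2 and Gbp9 under 2, and those of the other 7 members under 0. The log2 fold change of Gbp2b minus the median of its 9 relatives was 1.25 (without ZQD 3) to 1.93 (DESeq2 on rebuilt reads). The fold change of Gbp2b itself was 1.89 in edgeR and 1.89 in DESeq2, which use no added 0.5 FPKM. The members whose groups did not overlap numbered 2 with TMM scaling (Gbp8 beside Gbp2b), 2 on the TPM scale (Gbp7 beside Gbp2b) and 1 to 2 with 1 library left out: Gbp8 joined without control 2 or without ZQD 2, and Gbp4 without control 4. The family median was 0.01, -0.09 on the TPM scale, -0.12 without control 1 and 0.13 without control 4. Gbp3 was above 0 without control 2 or control 4, and Gbp9 without control 4. DESeq2 called 504 genes, limma 0. The median share of stretches found in another family gene was 1.17% at 100 bases and 5.64% at 50 bases. Same-numbered samples did not deviate together in every pair (correlations of 0.253, 0.0998 and -0.150), so the numbers were not taken as pairs. With the replicate number as a block, 1 gene was called, the Gbp2b difference from its relatives was 1.45 and the family median 0.13, and 2 type I signalling genes and 1 inflammasome or conjugation gene had an unadjusted p under 0.05. Shared sequence limits Gbp6 and Gbp10 and, to a lesser degree, Gbp8, and low read numbers limit Gbp10 and Gbp2b.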

Other observations

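The ISRE core was also found in the windows of 6 of 7 immunity-related GTPases that had one and of 5 of 9 type I antiviral effectors, against 3.99% of genes, and in 0 of 14 inflammasome and conjugation genes. The GAS letters were in 5 of those 7 immunity-related GTPases and in 2 of 9 antiviral effectors, against 9.55% of genes. Gbp11, a further family gene outside the 10 members, had control values of 0.432, 1.26, 0.811 and 1.24 FPKM and ZQD values of 1.04, 0.634 and 0.524, with overlapping groups.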
